A study of Mus musculus with 12 samples.

Results

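The FK506-binding proteins (FKBPs) of the endoplasmic reticulum (ER) are encoded in the mouse by Fkbp2, Fkbp7, Fkbp9, Fkbp10, Fkbp11 and Fkbp14. Members were matched by symbol to the array's probe annotation; the set of genes was chosen with earlier results of these data known. Of the 6 genes, 5 had 1 probe each, which made 5 of the 38784 probes on the array: Fkbp2 (probe 20018), Fkbp7 (probe 9004), Fkbp9 (probe 33494), Fkbp11 (probe 28479) and Fkbp14 (probe 11856). No probe carried the symbol Fkbp10, which was not analysed here. All 5 probes had a value on all 12 arrays and passed the filter on missing values, as did 30357 probes in all.

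The study profiled 3T3 cells, an established mouse embryonic fibroblast line, as untreated controls and with the small molecule Shld1 at 10 nM, 100 nM and 1 µM, with 3 arrays per group. Shld1 is a synthetic cell-permeable ligand made to bind an engineered variant of the cytosolic protein FKBP12, the product of Fkbp1a in the mouse, and in its common use it stabilises proteins fused to that variant. Each array paired Cy5-labelled cell RNA with Cy3-labelled Stratagene mouse reference total RNA, a commercial pool that was on every array. The labels name neither the length of treatment, nor the vehicle, nor whether the cells carried a fusion protein, nor whether same-group arrays came from separate cultures, so p-values measure only the spread between these samples, which may be technical.

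FKBPs are peptidyl-prolyl cis-trans isomerases, enzymes that speed the rotation of peptide bonds before proline, a slow step in protein folding, and those with a signal peptide act on proteins in the secretory pathway. In fibroblasts the main proline-rich secretory cargo is collagen, whose triple helix forms in the ER with the help of prolyl hydroxylases, the collagen chaperone Serpinh1 (HSP47) and the cyclophilin Ppib. Fkbp7, Fkbp9, Fkbp10 and Fkbp14 carry calcium-binding EF-hand motifs beside their isomerase domains, Fkbp9 and Fkbp10 have several isomerase domains in a row, Fkbp11 has a membrane anchor, and Fkbp2 is a small protein with a single isomerase domain. In humans, loss of FKBP10 causes a brittle bone disease and loss of FKBP14 a form of Ehlers-Danlos syndrome, both disorders of collagen-rich tissue.

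The promoter windows below belong to Fkbp9 and Fkbp11, which are shown because they were the members that passed the test against the reference over the 12 arrays, Fkbp11 only with the arrays centred. Each runs from 250 bases before to 50 bases after an annotated start in RefSeq's GRCm38.p6 annotation, 5′ to 3′ on the gene's strand. Capitals mark CCACG on either strand (CGTGG where it lies on the other strand), which is the second part of the ER stress response element.
Fkbp9, chr6:56831809-56832108, plus strand: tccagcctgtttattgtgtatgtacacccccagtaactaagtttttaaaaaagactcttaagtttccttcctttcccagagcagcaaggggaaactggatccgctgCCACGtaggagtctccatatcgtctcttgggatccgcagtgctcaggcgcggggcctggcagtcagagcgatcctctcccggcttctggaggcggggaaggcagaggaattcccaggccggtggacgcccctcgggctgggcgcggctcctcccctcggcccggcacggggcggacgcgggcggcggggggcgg
Fkbp11, chr15:98727578-98727877, minus strand: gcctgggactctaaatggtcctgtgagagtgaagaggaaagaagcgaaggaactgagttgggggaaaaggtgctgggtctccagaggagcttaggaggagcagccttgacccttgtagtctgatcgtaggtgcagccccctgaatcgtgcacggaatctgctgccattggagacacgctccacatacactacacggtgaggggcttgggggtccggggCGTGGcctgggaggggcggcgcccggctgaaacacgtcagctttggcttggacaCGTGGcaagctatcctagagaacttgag

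RefSeq gave 9 windows for the 5 measured members and none matched Fkbp10. CCACG, searched on both strands, lay in 5 of the 9 windows and in at least 1 window of each of the 5 members, against 32.8% of all 32851 windows and 35.5% of the 27025 genes with a window. The other Fkbp11 window, chr15:98728149-98728448, did not hold it. The full element, CCAAT and CCACG with 9 bases between them, was in 0 of the 9 windows and in 0.119% of all windows. GACGTG is a core recognised by ATF6 and XBP1, the transcription factors of the unfolded protein response. It was in 2 of the 9 windows, against 6.38% of all windows. By gene, it was in 2 of the 5 members, Fkbp11 and Fkbp14, against 7.15% of genes with a window. These short words are common, and a match describes the letters only.

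The value analysed throughout was the deposited log ratio minus the median of its array, so 0 is the array's median ratio. It was read as the log2 of cell RNA over reference RNA; the log base is not stated beside the values, and every fold given here rests on base 2. It is a ratio and not a level, and ratios of different genes do not rank the amounts of their mRNAs. The arrays held 30649 to 33615 values each, their medians before centring were -0.20 to -0.10, and arrays correlated at r = 0.66 to 0.85 across probes. The direction of the ratio is not stated beside the values either and follows the dyes in the labels. As a check of the labelled cell type, 9 of 12 fibroblast markers were called above the reference and 1 below over all arrays (limma on 1 value per gene, in which 73% of 14523 genes were called and 38.6% called above), while 0 of 10 measured macrophage and leukocyte markers were called above it and 7 below. Of 8 measured epithelial markers 2 were called above and 5 below, and of 8 measured plasma cell and B cell markers 3 were called above and 5 below.

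The first question was where the ER FKBPs stood in 3T3 cells relative to the reference RNA. Fkbp9 stood well above it, at 2.74 times the reference, and Fkbp11 slightly above it, at 1.20 times. The ratios of Fkbp7, Fkbp14 and Fkbp2 were not separated from the array median. Of the 5 members, 2 were called above and 0 below (limma, Benjamini-Hochberg adjusted p under 0.05 over 30357 probes), and in the same test 71.3% of all probes were called in one direction or the other, 35.6% above.

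Fkbp9 had centred log2 ratios of 0.97 to 2.15 on the 12 arrays, with a median of 1.47. All 12 arrays were above 0, and 97.8% of tested probes had a lower mean ratio. The mean of the 4 groups was 1.45 (SE 0.09, 95% interval 1.25 to 1.65), a fold of 2.74 (2.38 to 3.15), with a limma adjusted p of 4.68e-08. The 3 control arrays gave 1.46, 1.62 and 1.48. The control mean was 1.52 (SE 0.18, limma adjusted p = 6.22e-05), and Fkbp9 was the 1 member of 5 called in untreated cells alone, where 43.3% of all probes were called and 23.4% called above.

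Fkbp11 had ratios of -0.16 to 0.44, with a median of 0.30. On 11 of the 12 arrays it was above 0; the exception was replicate 3 at 1 µM. Its mean was 0.26 (SE 0.06, 95% interval 0.13 to 0.39, limma adjusted p = 0.0019). Its residual SD of 0.16 was small, with 7.56% of probes having a lower one. The call depended on the centring of the arrays: the ratio as deposited averaged 0.11 with a limma adjusted p of 0.107. In control cells alone the mean was 0.21 ± 0.09 (SD, n = 3; limma adjusted p = 0.179).

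Fkbp7 lay between -0.55 and 0.77, with a median of 0.21, and was above 0 on 8 of 12 arrays. Its mean of 0.17 had a 95% interval of -0.05 to 0.38 (limma adjusted p = 0.154); it passed without control replicate 3 (0.24, limma adjusted p = 0.023) and without 10 nM replicate 3 (0.23, limma adjusted p = 0.04). Fkbp14 lay between -0.23 and 0.77, with a median of 0.02, and was above 0 on 6 arrays. Its mean of 0.08 had an interval of -0.09 to 0.24 (limma adjusted p = 0.381). Fkbp2 lay between -0.94 and 0.30, with a median of -0.07, and was above 0 on 4 arrays. Its mean of -0.13 had an interval of -0.33 to 0.07 (limma adjusted p = 0.207), and the ratio as deposited, without centring, averaged -0.28 (limma adjusted p = 0.0172).

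**Figure D1:**
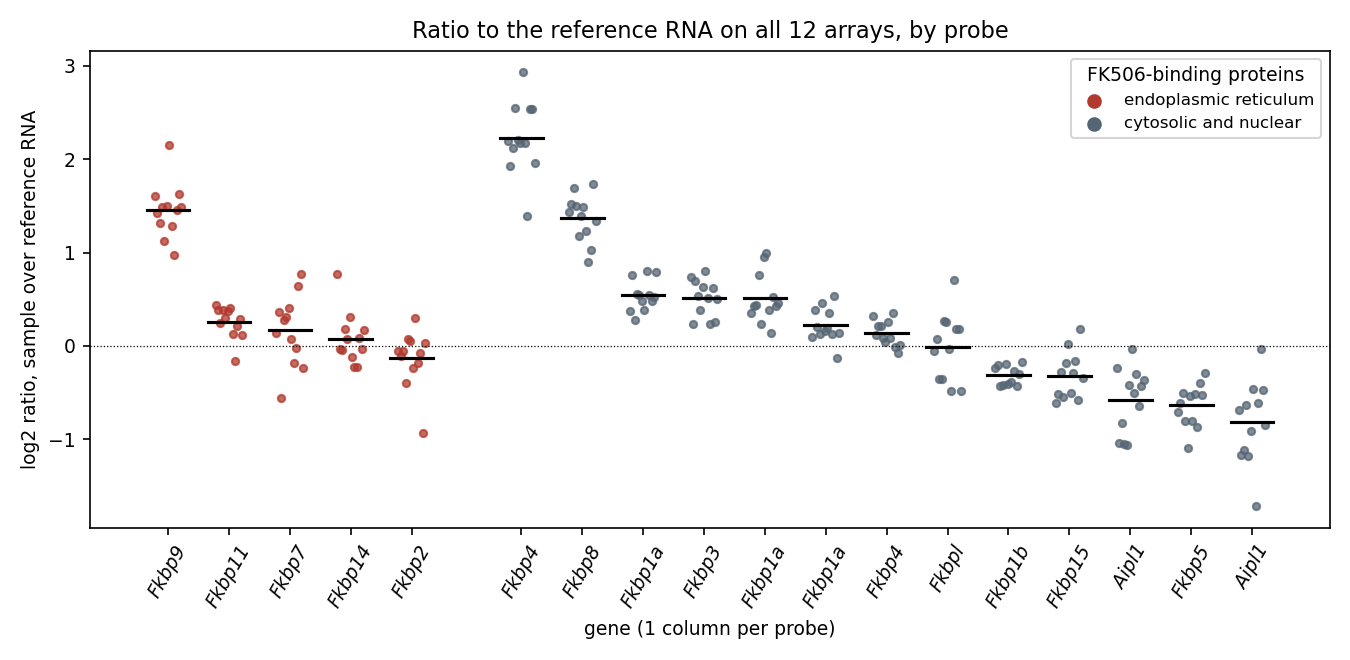
Centred log2 ratio of 3T3 RNA over reference RNA for the 5 ER FKBP probes (left) and 13 probes of cytosolic and nuclear FKBPs (right); each point is 1 of the 12 arrays and each bar their mean. All 12 Fkbp9 points lie above 0 (0.97 to 2.15), while the points of Fkbp2, Fkbp7, Fkbp11 and Fkbp14 lie on both sides of it.

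The FKBPs outside the ER, which include chaperones of steroid receptors and the FK506 target itself, served as the nearest comparison. Of 11 such genes 9 were measured, and over all arrays 4 were called above and 4 below the reference, with a median log2 ratio of -0.01. The 5 ER members had a median of 0.17 and all genes 0.03; the difference between the families was not tested. With only probes measured on all 12 arrays, the median outside the ER was 0.21 and the order of the families turned round. Fkbp8, an FKBP of the mitochondrial outer membrane, stood at 1.37. Fkbp5, a co-chaperone of glucocorticoid receptors, stood at -0.64. The 2 probes of Fkbp4, another Hsp90 co-chaperone, disagreed at 2.23 and 0.13. Each ER member had 1 probe, so no other probe of the same gene checks its ratio.

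The second question was whether Shld1 moved the ER FKBPs at any dose. None of the 5 passed the test at 10 nM, 100 nM or 1 µM (limma, Benjamini-Hochberg over 30357 probes), and 0 of 5 had an unadjusted p under 0.05 at any dose. Over all probes 0% were called at 10 nM, 0% at 100 nM and 0.00329%, which was 1 probe, at 1 µM. Unadjusted p-values under 0.05 came from 2.67%, 3.23% and 4.23% of probes at the 3 doses in that order. At 1 µM the member estimates ran from a fold of 0.742 for Fkbp7 to 1.22 for Fkbp2, and every 95% interval contained no change.

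Fkbp9, the member farthest above the reference, gave ratios of 1.46, 1.62 and 1.48 in control cells. Its ratios were 1.60, 1.43 and 1.31 at 10 nM and 1.49, 1.12 and 1.50 at 100 nM. At 1 µM they were 2.15, 1.29 and 0.97. The 1 µM arrays thus held both the highest and the lowest of the 12 values, and no dose group was separate from the controls. The means were 1.47 ± 0.61 at 1 µM and 1.52 ± 0.09 in controls (SD, n = 3 each), a log2 change of -0.05 (SE 0.26, 95% interval -0.62 to 0.51). Without 1 µM replicate 1 the change was -0.39, and without 1 µM replicate 3 it was 0.20. The changes were -0.08 at 10 nM and -0.15 at 100 nM, again inside their intervals.

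Fkbp7, a soluble ER isomerase known to bind the chaperone Hspa5 (BiP) in the mouse, gave 0.64, 0.77 and -0.24 in control cells. Its ratios were 0.14, 0.37 and -0.55 at 10 nM and 0.27, 0.31 and 0.41 at 100 nM. At 1 µM they were 0.08, -0.18 and -0.02. Control replicate 3 lay below all 1 µM arrays, while the other 2 control arrays lay above them, so the groups overlapped. The means were -0.04 ± 0.13 at 1 µM and 0.39 ± 0.55 in controls (SD, n = 3 each). The log2 change of -0.43 (SE 0.28, 95% interval -1.04 to 0.18) had an unadjusted limma p of 0.152 and an adjusted p of 0.999. With control replicate 3 left out it was -0.75, and with replicate 2 left out -0.24. The change at 10 nM was -0.41 (95% interval -1.02 to 0.21), and at 100 nM it was -0.06. Arrays with the same replicate number have consecutive array numbers in their titles, and within these 3 sets the 10 nM array differed from the control array by -0.50, -0.41 and -0.31. At 1 µM the differences within sets were -0.56, -0.95 and 0.22. The 2 intervals at 10 nM and 1 µM were the ones among members that reached past a 2-fold decrease.

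Fkbp14, an isomerase that acts on collagen type III in biochemical assays, gave 0.08, -0.04 and 0.17 in control cells. Its ratios were 0.77, -0.03 and -0.05 at 10 nM and 0.18, 0.07 and 0.31 at 100 nM. At 1 µM they were -0.12, -0.22 and -0.23. All 3 arrays at 1 µM were below all 3 control arrays, a pattern seen for 3.93% of the probes measured on all 6 of those arrays. The means were -0.19 ± 0.06 at 1 µM and 0.07 ± 0.10 in controls (SD, n = 3 each). The log2 change was -0.26 (SE 0.21, 95% interval -0.72 to 0.20), with an unadjusted limma p of 0.245 and an adjusted p of 0.999. The SE comes from all 12 arrays, and replicate 1 at 10 nM, at 0.77, was far above the other 11. Without that array the 10 nM change of 0.16 became -0.11, whereas the 1 µM change was between -0.31 and -0.21 whichever array was left out.

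Fkbp11, a membrane-anchored FKBP best known from secretory cells such as plasma cells, gave 0.21, 0.29 and 0.12 in control cells. Its ratios were 0.44, 0.39 and 0.25 at 10 nM and 0.39, 0.30 and 0.37 at 100 nM. At 1 µM they were 0.40, 0.12 and -0.16. The 3 arrays at 100 nM were all above the 3 control arrays, a pattern seen for 4.51% of the probes measured on those arrays, and the other doses overlapped the controls. The means were 0.35 ± 0.05 at 100 nM and 0.21 ± 0.09 in controls (SD, n = 3 each). The log2 changes were 0.15 at 10 nM (SE 0.17, 95% interval -0.22 to 0.52), 0.14 at 100 nM (-0.23 to 0.51) and -0.09 at 1 µM (-0.45 to 0.28). The sign at 1 µM rested on replicate 3 of that dose, without which the change was 0.06.

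Fkbp2, the small single-domain member also called FKBP13, gave -0.08, -0.94 and 0.03 in control cells. Its ratios were -0.06, -0.11 and -0.06 at 10 nM and -0.39, 0.07 and 0.05 at 100 nM. At 1 µM they were -0.24, 0.30 and -0.18. Control replicate 2 was the lowest of the 12 arrays, and the groups overlapped at every dose. The means were -0.04 ± 0.30 at 1 µM and -0.33 ± 0.53 in controls (SD, n = 3 each), a log2 change of 0.29 (SE 0.26, 95% interval -0.27 to 0.85). Without control replicate 2 the changes of 0.26, 0.24 and 0.29 at the 3 doses became -0.05, -0.06 and -0.01.

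**Figure D2:**
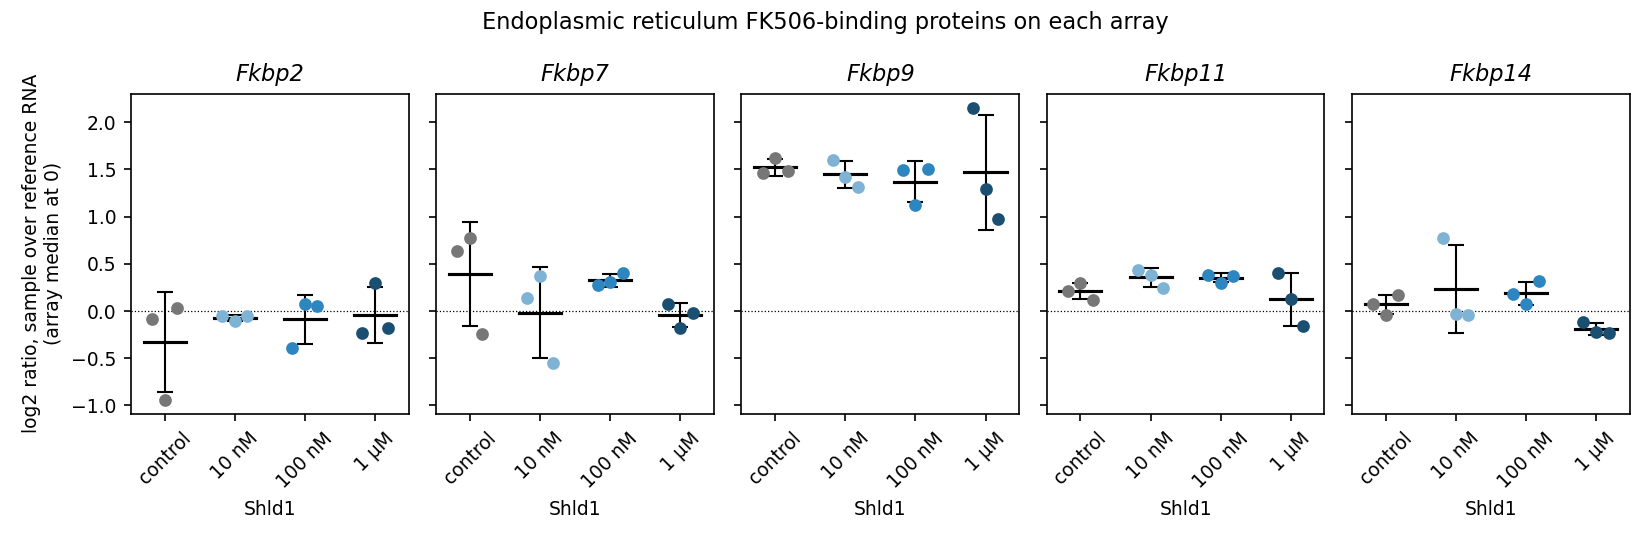
Centred log2 ratio over the reference for each member on each array, by Shld1 dose from control to 1 µM; points are arrays and bars the group mean with its SD (n = 3). The lone low control array of Fkbp2 (-0.94), the lone high 10 nM array of Fkbp14 (0.77) and the spread of Fkbp9 at 1 µM (0.97 to 2.15) stand out.

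Over the doses as a series, the log2 slope per dose step, with the 4 groups taken as equally spaced, was 0.09 for Fkbp2, -0.09 for Fkbp7, -0.02 for Fkbp9, -0.03 for Fkbp11 and -0.08 for Fkbp14. None of the 5 passed the trend test or the F test over the doses, in each of which 0.00329% of probes passed, and 0 of 5 had an unadjusted limma p under 0.05 in either. The estimates were above 0 for 3 of 5 members at 10 nM, 3 of 5 at 100 nM and 1 of 5 at 1 µM. Their medians were 0.15, 0.12 and -0.09, beside 0.00, 0.02 and -0.01 for all probes. Complete separation of a dose from the controls was seen for 0 of 5 members at 10 nM (3.42% of probes lay all above and 3.26% all below). At 100 nM it was seen for Fkbp11 alone (4.51% above, 3.64% below), and at 1 µM for Fkbp14 alone (3.44% above, 3.93% below). Set by set, Fkbp11 was above and Fkbp7 below the control array in all 3 array sets at 10 nM, patterns shared by 11.6% and 10.6% of probes. At 100 nM Fkbp11 and Fkbp14 were above in all 3 sets and no member below (12% of probes above, 10.1% below), and at 1 µM Fkbp14 was below and no member above (12.4% of probes below, 10.3% above). With the array set as a block in limma, 0 of 5 members passed at any dose. The 3 doses share the same control arrays, so their values are not independent. A change by a factor of 2 in either direction lay outside the 95% interval of 4 of 5 members at 10 nM, 5 of 5 at 100 nM and 4 of 5 at 1 µM. The same held for 80%, 80.4% and 77.9% of all probes. With 3 arrays a group, changes inside these intervals could not be told from no change. The intervals are not the limit of the adjusted test, which larger changes could also fail.

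**Figure D3:**
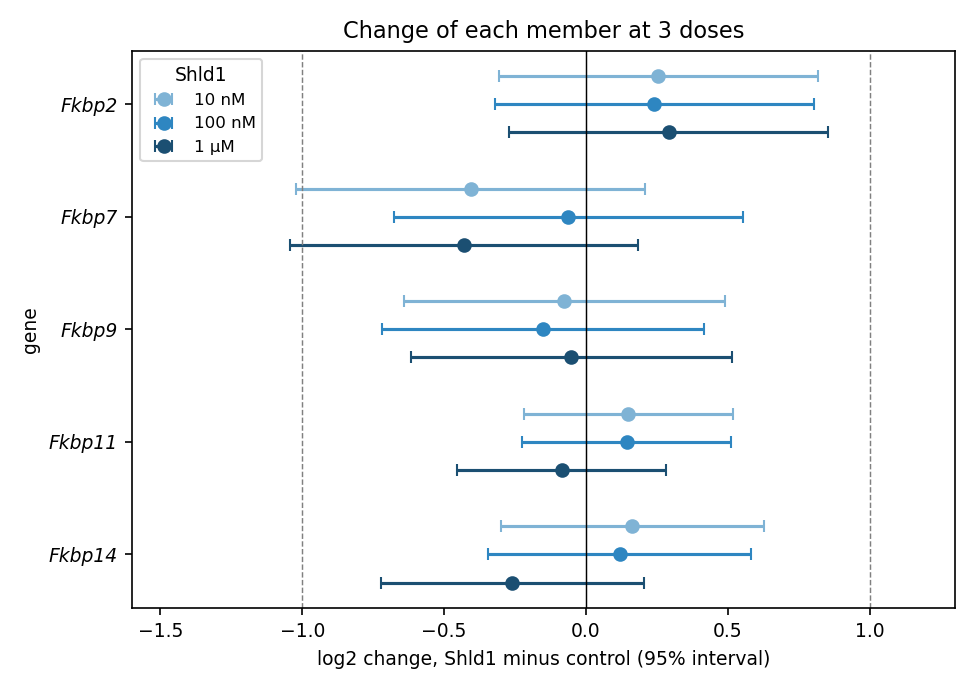
Log2 change against control for each member at 10 nM, 100 nM and 1 µM Shld1, with 95% intervals from limma and dashed lines at a doubling and its inverse. All 15 intervals cover 0, and those of Fkbp7 at 10 nM and 1 µM extend past the lower dashed line.

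The FKBPs outside the ER gave the same count of calls, 0 at each dose. At 100 nM 1 of the 9 had an unadjusted limma p under 0.05, and at 10 nM and 1 µM 0 did. At 1 µM 0 of the 9 measured genes were called (limma on 1 value per gene, Benjamini-Hochberg over 14523 genes, of which 0% were called), with a median log2 change of -0.03. Fkbp1a averaged 0.44 ± 0.14 at 1 µM and 0.42 ± 0.13 in controls (SD, n = 3 each), a change of 0.02 (SE 0.14). Fkbp5 had the smallest unadjusted limma p of the 9 at 1 µM (0.082, adjusted 0.999). It changed by -0.21 at 10 nM, -0.41 at 100 nM and -0.32 at 1 µM (SE 0.17 each).

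The rest of the ER folding machinery and its cargo was read from lists that hold no member. Of their 126 genes, cell type markers and cytosolic FKBPs included, 114 were measured and 0 were called at any dose by limma. Among ER chaperones and disulfide isomerases (22 of 22 measured), 10 were above and 12 below control at 1 µM, with a median of -0.03 beside -0.02 for all genes, and 2 had an unadjusted p under 0.05. These were Pdia6, a disulfide isomerase, at -0.78 (SE 0.27), and Dnajc3, a co-chaperone of Hspa5, at -0.66 (SE 0.24), each with an adjusted limma p of 0.999. Pdia6 lacked a value on an array at 1 µM. Hspa5 itself stood at -0.03 (SE 0.16) and Ppib at -0.23 (SE 0.24). In the unfolded protein response list (18 of 20 measured), 12 were above and 6 below with a median of 0.05. Derl1, of the ER-associated degradation machinery, stood at 0.39 (SE 0.18), and Chac1, a target of the ATF4 branch, at -1.63 (SE 0.86).

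Among genes of collagen folding and modification (18 of 19 measured), 6 were above and 12 below control at 1 µM, with a median of -0.06 and 0 unadjusted p-values under 0.05. Crtap, a partner of prolyl 3-hydroxylase, stood at -0.31 (SE 0.17), and Serpinh1 at 0.00 (SE 0.20). Among the fibrillar collagen and elastic fibre genes (13 of 15 measured), 3 were above and 10 below, with a median of -0.12. Col3a1 stood at -0.45 (SE 0.18), Col1a1 at -0.21 (SE 0.15) and Eln, the elastin gene, at 0.02 (SE 0.30). Fibroblast markers, which share collagen genes with this list, had 2 of 12 above and 10 below, with a median of -0.36 and 3 unadjusted p-values under 0.05. Their mean ratio was 0.83 to 1.09 on the 1 µM arrays and 1.14 to 1.45 on the control arrays, without overlap. At 10 nM it was 0.93 to 1.21 and at 100 nM 1.01 to 1.27, both overlapping the controls. Macrophage and leukocyte markers had 10 of 10 above control with a median of 0.31 and 1 unadjusted p under 0.05. Their mean ratio was -0.76 to -0.44 on the 1 µM arrays and -1.64 to -0.56 on the control arrays. Epithelial markers had 5 of 8 above with a median of 0.11 and 1 unadjusted p under 0.05. Epcam stood at 0.55 (SE 0.25) and Krt8 at 0.47 (SE 0.22). The 6 epithelial markers with a value on all 12 arrays had a mean ratio of -1.0 to -0.63 on the 1 µM arrays and -1.42 to -0.68 on the control arrays. Ocln, at -0.93 (SE 0.85), and Cdh1, at -0.285 (SE 0.30), were both lower at 1 µM and are not in that mean. Plasma cell and B cell markers had 6 of 8 above with a median of 0.38 and 2 unadjusted p-values under 0.05. Only 7 of these genes had a value on all 12 arrays. Their mean ratio was -1.02 to -0.93 on the 1 µM arrays and -1.83 to -1.17 on the control arrays, without overlap. At 10 nM it was -1.24 to -0.99 and at 100 nM -1.47 to -1.19, both overlapping the controls. Prdm1, which changed by -1.77 (SE 0.87) at 1 µM, is not in that mean. No marker gene was called at 1 µM, and the separation of list means was not tested. Of single probes, 3.44% lay all above and 3.93% all below the controls at 1 µM. Any part of these marker differences in the member values at 1 µM was not tested either.

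Relative to the reference, the lists differed more than they did with dose. Over all arrays 10 of 18 genes of collagen folding and modification were called above and 5 below, with a median of 0.24 (73% of all genes were called, 38.6% above). Of the collagen and elastic fibre genes 10 of 13 were above and 1 below, with a median of 0.92. Of ER chaperones 6 of 22 were above and 8 below, with a median of -0.08, and of the unfolded protein response 2 of 18 were above and 12 below, with a median of -0.46. By single genes, the ratio to the reference was 1.31 for Serpinh1, 0.93 for Crtap, 0.99 for Col1a1 and -1.16 for Hspa5. That of Fkbp9 was 1.45. The same lists also held genes on the other side of the reference. Among genes of collagen folding and modification, P4ha1 stood at -1.401 and Plod2 at -1.33, and among ER chaperones Canx stood at 1.299. Whether Fkbp9 goes with any of these lists was not tested.

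**Figure D4:**
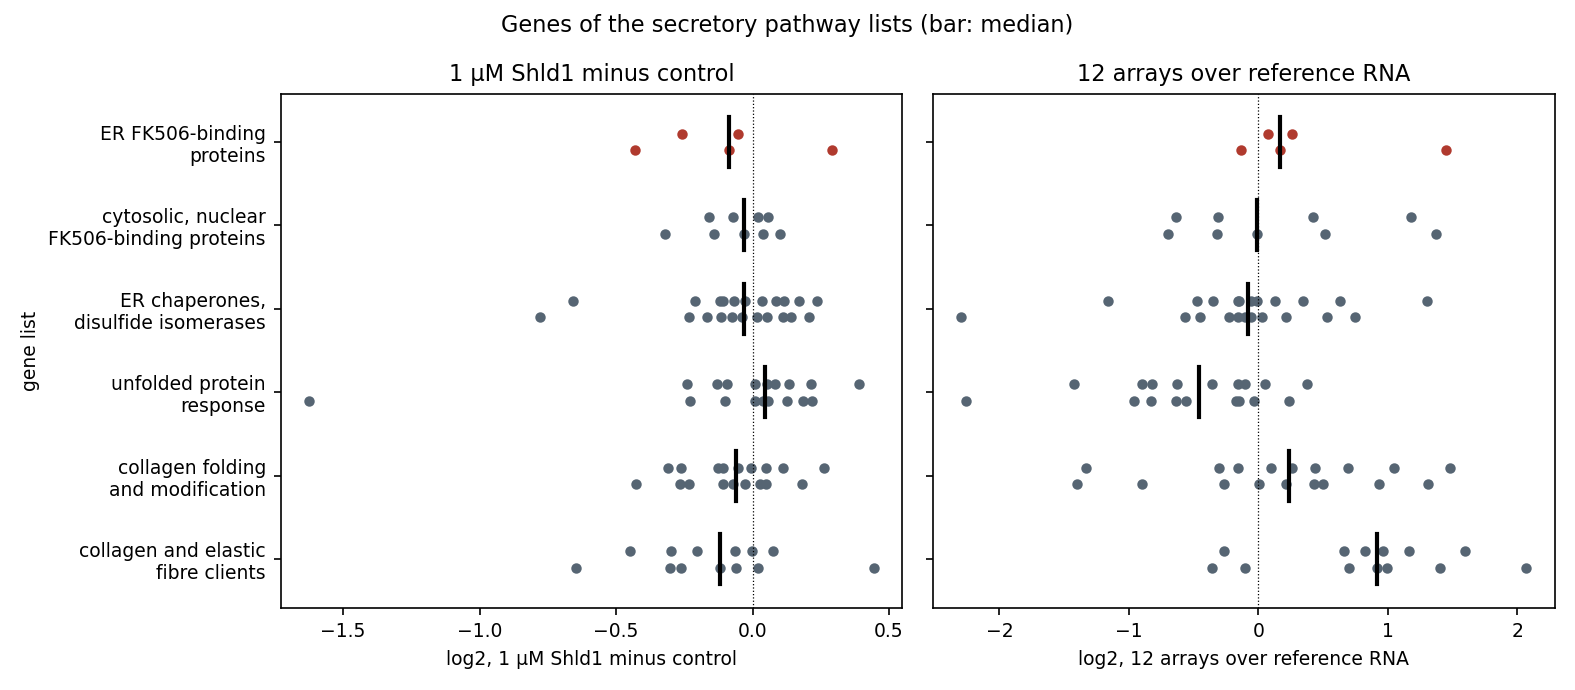
Log2 change at 1 µM Shld1 against control (left) and mean log2 ratio of the 12 arrays over the reference (right) for the genes of 6 lists; each dot is a gene and each bar the list's median. On the left the medians lie between -0.12 and 0.05; on the right they run from -0.46 for the unfolded protein response to 0.92 for collagen and elastic fibre genes.

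Across the 12 arrays the members did not share one pattern. Pearson's r between pairs of members, given as a description over 12 arrays that share the reference RNA, ran from -0.52 for Fkbp2 with Fkbp7 to 0.64 for Fkbp9 with Fkbp11. Leaving out the 2 arrays farthest from the median of the first-named member brought these to -0.04 and 0.34. For Fkbp11 with Fkbp14 r was 0.55, and 0.59 without the 2 arrays farthest from the Fkbp11 median. That step kept replicate 1 at 10 nM, the lone high array of Fkbp14 (0.77), where Fkbp11 was also at its highest (0.44). It therefore does not show how far r rested on that array. Of 12983 genes with a value on all 12 arrays, those most like Fkbp9 were Ginm1 and Fbxo28, both at r = 0.92 (0.82 and 0.84 without the 2 farthest arrays). Those most like Fkbp11 were Hnrnpdl (r = 0.94) and Relch (r = 0.90), and those most like Fkbp7 were Notum (r = 0.90) and Tead4 (r = 0.90). Those most like Fkbp14 were S1pr4 (r = 0.87) and Wdfy2 (r = 0.86). Those most like Fkbp2 were Krtcap2 (r = 0.95) and Trhr2 (r = 0.92), whose r without the 2 farthest arrays was 0.71 and 0.68. The best of so many genes over 12 arrays has a high r by selection, and the likeness is a description only.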

How the data were processed

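Cell RNA (Cy5) and a common mouse reference RNA (Cy3) were hybridised together on 12 arrays, per the labels; dyes were not swapped, so dye bias remains. The deposited values are log ratios per probe, read here as log2; for their scaling and background correction, not given in the sources used here, no setting is assumed, and neither log base nor direction is stated beside the values. The direction follows the dyes. The median of each array was subtracted. A probe was tested if each group had values for it on 2 or more of its 3 arrays (30357 tested, 8427 left out). Group means of all 12 arrays were fitted in limma 3.58.1 (R 4.3.3; lmFit and eBayes), with Benjamini-Hochberg adjustment over all probes and a threshold of 0.05. Each dose was compared with control, and the control mean and the mean of the 4 groups with 0. Lists were read from the same fit on 1 value per gene (14523 genes), the mean of probes measured on all arrays. A gene with no such probe took its probe with the most values. The fit was checked on simulated data.

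Probes were named from the platform's annotation, in which 26173 probes had 1 symbol, 28 several and 12583 none. Named genes were all members, up to 4 genes per list with the smallest unadjusted p at 1 µM, Fkbp1a, Ppib, Serpinh1, Hspa5, Col1a1 and Eln, and the 2 genes most like each member. The other genes with a value beside them, the cytosolic FKBPs and the list genes given relative to the reference, were chosen after their values were seen. Members and lists were chosen with earlier results of these data known. The number of arrays limits the precision. Replicates 1, 2 and 3 have array numbers 88 to 91, 92 to 95 and 96 to 99 in their titles, and no label says that a number marks a shared culture, day or batch. Same-numbered arrays of different groups had deviations correlated at -0.10 to 0.25, over 0.1 in 9 of 18 pairs. Differently numbered arrays of different groups gave -0.31 to 0.21. A shared effect of the number was not tested. The main fit did not take numbers as pairs, since the labels state no pairing. Differences within the array sets were added after seeing the data. Alternatives were no centring, quantile normalization, equal array scale, array weights, robust variances, other filters, 1 value per gene, fits of a dose and control alone, a replicate block and leaving out each array.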

Additional observations from a re-analysis of the deposited data

How the results depend on the processing

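No member passed a dose, trend or F test under any alternative run, and Fkbp9 was above the reference in all of them, at 1.3 to 1.52 over the 12 arrays. In control cells alone, 2 members passed against the reference under quantile normalization, where Fkbp2 was at -0.50 (limma adjusted p = 0.0437), and 1 to 2 passed when 1 array was left out, the 2 coming without control replicate 3. Centring decided several small ratios. Without it, Fkbp14 was at -0.0817 in control cells and -0.0747 over all arrays, and under quantile normalization at -0.0754 and -0.0732. Over all arrays quantile normalization also put Fkbp7 at -0.00075, Fkbp11 at 0.10 (limma adjusted p = 0.128) and Fkbp2 at -0.29 (limma adjusted p = 0.0148). The ER FKBP median over all arrays was 0.02 without centring.

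Leaving out each array in turn gave the following log2 ranges for changes that crossed 0. At 10 nM they were -0.11 to 0.30 for Fkbp14 and -0.0483 to 0.43 for Fkbp2. At 100 nM they were -0.38 to 0.13 for Fkbp7 and -0.0627 to 0.42 for Fkbp2. At 1 µM they were -0.39 to 0.20 for Fkbp9, -0.23 to 0.0552 for Fkbp11 and -0.0123 to 0.47 for Fkbp2, and the members' median ran from -0.30 to 0.06. For the slope per dose step they were -0.13 to 0.0515 for Fkbp9, -0.0684 to 0.016 for Fkbp11 and -0.00513 to 0.14 for Fkbp2. Probes called at 1 µM numbered 0 to 3, and those called in control cells against the reference 9310 (without control replicate 2) to 14386 (quantile normalization), over the alternatives tested on probes; on 1 value per gene 6695 of 14523 genes were called there. The replicate block changed no member's call; with it, Fkbp7 at 1 µM was at -0.43 with a limma adjusted p of 0.94 and at -0.41 at 10 nM with a limma adjusted p of 1.00. The cause of these shifts was not tested beyond the arrays named.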
